A study of Homo sapiens with 2 samples.

Results

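The genes described here are 10 inflammatory cytokines and chemokines, IL6, CXCL8, CXCL1, CXCL2, CXCL3, LIF, CSF2, CCL2, IL1A and IL1B, taken as a named list from 20033 protein-coding genes. Each gene stands for its own body and the 50 kb on either side, and the clustered CXCL genes, from CXCL8 to CXCL2, were taken as 1 continuous locus. IL1A and IL1B lie close enough for their windows to share peaks, so the genes form 6 loci. Binding of RUNX2 and of MTA1 was profiled in untreated MDA-MB-231 cells, by CUT&Tag according to the methods of the study. The cells are a widely used human line of triple-negative breast cancer and were kept in medium with fetal bovine serum. In CUT&Tag an antibody brings a transposase to chromatin, and the DNA cut near the bound protein is sequenced. The labels describe adaptor ligation to precipitated DNA instead, so the library preparation is uncertain. Each antibody had 1 library, so the values have no replicate and were not tested, and no control library was analysed here. The 6 loci held 56 of 61700 RUNX2 peaks and 43 of 42683 MTA1 peaks.

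RUNX2 is a DNA-binding factor of the Runt family, known for directing bone formation, and MTA1 is a subunit of NuRD, a complex that remodels nucleosomes and removes acetyl groups from histones. The genes of the list are kept low in most resting cells and are switched on by inflammatory signals through NF-kB and AP-1, often with the help of enhancers that lie far from the gene. Their products signal to neighbouring cells: the interleukin 1 proteins start the response, interleukin 6 and LIF act through receptors that share the gp130 chain, and the chemokines attract white blood cells. MDA-MB-231 cells are known to release interleukin 6 and interleukin 8, the product of CXCL8. The comparison made here asks which sites at these genes carry peaks of both proteins.

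Every peak carries a score given by the authors, whose scale was not stated, and the scores were compared between the lists only by rank, as the percent of peaks of the same list with a lower score. The depth of both libraries is unknown. At the low end the lists are coarse: 31.7% of RUNX2 peaks had the narrowest width of 99 bp and 26% of MTA1 peaks the narrowest width of 116 bp, and 6168 RUNX2 peaks shared a score of 5.22. In the 6 loci 14 of the 56 RUNX2 peaks and 7 of the 43 MTA1 peaks had these widths, and 5 RUNX2 peaks had the score of 5.22. The submitters' processing notes name the build hg19, but the positions are those of GRCh38. In the RUNX2 list 140 peaks and in the MTA1 list 122 peaks lay past the end that chromosome 17 has in hg19, and 0 lay past its end in GRCh38.

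All 10 genes had a RUNX2 peak in the window, where 90.8% of protein-coding genes did, and 9 had an MTA1 peak, where 86.6% did. The exception was CCL2. Peaks of both lists lay in the windows of 9 genes, against 84.9% of all genes. They overlapped by at least 1 bp in the windows of 8 genes, against 80.1% of all genes, the others being CXCL1 and CCL2. A RUNX2 peak lay within 3 kb of an end of 6 genes (59.9% of all genes), an MTA1 peak of 7 (59.1%) and peaks of both of 6 (51.9%). Peaks from the highest-scoring 10% of their list, those above 90% of it, were found at 4 genes for RUNX2 (38.8% of all genes) and at 4 for MTA1 (38.9%), and at 3 genes for both (26.5%), which were LIF, CSF2 and IL1A. The shares of the list were thus close to those of all protein-coding genes. The genes are short, the longest being IL1A with 10569 bp. Among the 5909 protein-coding genes no longer than that, 82.8% had a RUNX2 peak in the window, 75.8% an MTA1 peak, 73.9% both and 69.3% an overlapping pair. Of these shorter genes 49.5% carried RUNX2 within 3 kb of an end, 48.1% carried MTA1 and 41.4% carried both. A peak above 90% of its list was in the window of 34.8% for RUNX2, of 37% for MTA1 and of 26% for both. The shares of the 10 genes were above each of these values, a difference that was not tested and that so few genes cannot settle. The arrangement of the peaks differed from gene to gene, as the map of the loci shows.

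**Figure D1:**
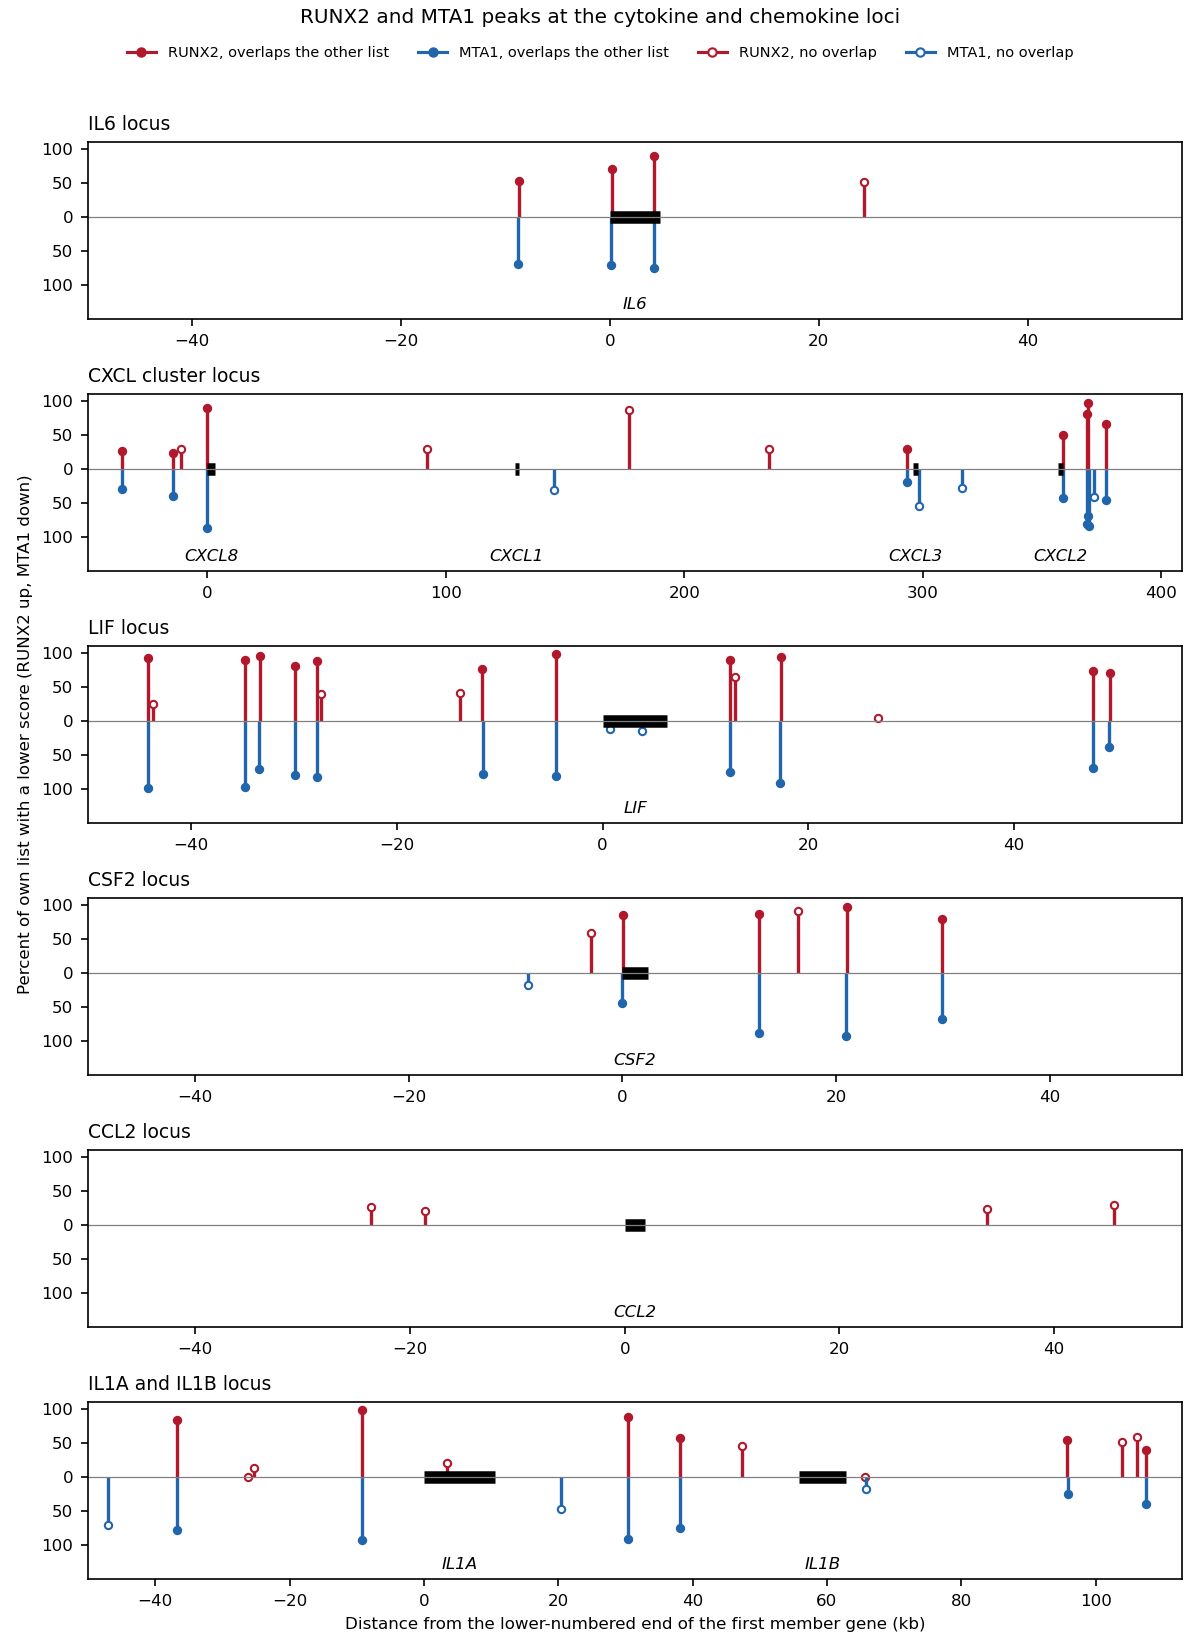
RUNX2 peaks (upward, red) and MTA1 peaks (downward, blue) at the 6 loci, each peak drawn at its centre as distance in kb from the lower-numbered end of the first member gene, with height as the percent of its own list with a lower score. Filled points overlap a peak of the other list, open points do not, and black bars are the member genes; LIF has peaks of both lists on both sides and CCL2 has 4 low RUNX2 peaks alone.

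IL6 encodes interleukin 6, a cytokine of the acute phase response and of bone breakdown. Its window held 4 RUNX2 and 3 MTA1 peaks, and all 3 MTA1 peaks overlapped a RUNX2 peak. Over the whole lists 45.4% of RUNX2 and 65.5% of MTA1 peaks overlapped a peak of the other list. Counts at single loci, here and below, are small and were not tested against these shares. The highest pair lay inside the gene towards its 3′ end, 4141 to 4379 bp after the start site for RUNX2, at chromosome 7, 22731341 to 22731579 (score 22.9, above 89.7% of the list). The MTA1 peak there, at 22731370 to 22731550, had a score of 12.7, above 74.2% of its list. Another pair lay just after the start site, from 102 to 219 bp for RUNX2 (score 10.5, above 70.5%) and from 61 to 224 bp for MTA1 (score 11.4, above 70.2%). This interval is also covered by IL6-AS1, a long noncoding RNA gene whose annotated span reaches into IL6. The third pair lay 8.54 kb upstream of the gene for RUNX2 (above 53.7%) and 8.61 kb upstream for MTA1 (above 68.6%). The remaining RUNX2 peak, 19.5 kb beyond the 3′ end, stood above 51.3% of its list and had no MTA1 peak. At IL6 the RUNX2 rank was therefore highest at the 3′ end of the gene, while the MTA1 ranks of the 3 sites ran from 68.6% to 74.2%.

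Among the chemokines, CXCL8 had a pair at the start site and CXCL1, CXCL2 and CXCL3 differed from it and from one another. CXCL8 encodes interleukin 8, which attracts neutrophils through CXCR1 and CXCR2. The RUNX2 peak covered the start site from -104 to +117 bp, at chromosome 4, 73740465 to 73740686 (score 22.5, above 89.4%). The MTA1 peak covered it from -129 to +198 bp, at 73740440 to 73740767 (score 19.5, above 87.1%). Here and below, position 0 is the first base of the annotated transcript. Upstream of the gene, 3 lower RUNX2 peaks and 2 lower MTA1 peaks lay between 10.8 and 35.9 kb away, standing above 22.9% to 39.1% of their lists. Both MTA1 peaks overlapped a RUNX2 peak, and the farthest pair lay inside INKILN, a long noncoding RNA gene. The peaks at the start site were thus the highest of the window in both lists.

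CXCL1, CXCL2 and CXCL3 encode the GRO chemokines, near copies of one another that also act on CXCR2. No peak of either list lay in CXCL1 or within 3 kb of it: the nearest RUNX2 peak was 36.6 kb upstream and the nearest MTA1 peak 14.7 kb downstream. The RUNX2 peak 45.8 kb downstream of CXCL1, at chromosome 4, 73917134 to 73917499 (score 20.4, above 87.5%), had no overlapping MTA1 peak. At CXCL3 an MTA1 peak lay from -161 to -25 bp, at chromosome 4, 74038714 to 74038850 (score 8.25, above 54.6%), with no RUNX2 peak over it. The RUNX2 peak in the window of CXCL3, 2.65 kb beyond its 3′ end, had the score of 5.22 that many RUNX2 peaks share, and it overlapped an MTA1 peak above 19.2% of its list. At CXCL2 a RUNX2 peak spanned the start site from -160 to +77 bp (score 6.77, above 50.7%), and an MTA1 peak lay from -294 to -101 bp (score 6.73, above 41.9%), sharing 60 bp with it.

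The highest RUNX2 peak of the CXCL locus lay 10.4 kb upstream of CXCL2, at chromosome 4, 74109589 to 74110168 (score 42.3, above 97.5%). It was 580 bp wide and overlapped 2 MTA1 peaks, at 74109664 to 74109863 (above 69%) and 74109986 to 74110174 (above 83.4%). A neighbouring pair, 9.99 kb upstream for MTA1, stood above 80.8% of the RUNX2 list and 81.4% of the MTA1 list. A further pair 17.9 kb upstream lay inside MTHFD2L, which encodes a mitochondrial enzyme of folate metabolism. Of the 12 RUNX2 peaks of the locus 8 overlapped an MTA1 peak (45.4% in the whole list). Of the 13 MTA1 peaks 9 overlapped one of RUNX2 (65.5% in the whole list). Between CXCL1 and CXCL3, where PF4, PPBP and CXCL5 also lie, no RUNX2 and MTA1 peaks overlapped before the pair at the 3′ end of CXCL3.

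**Figure D2:**
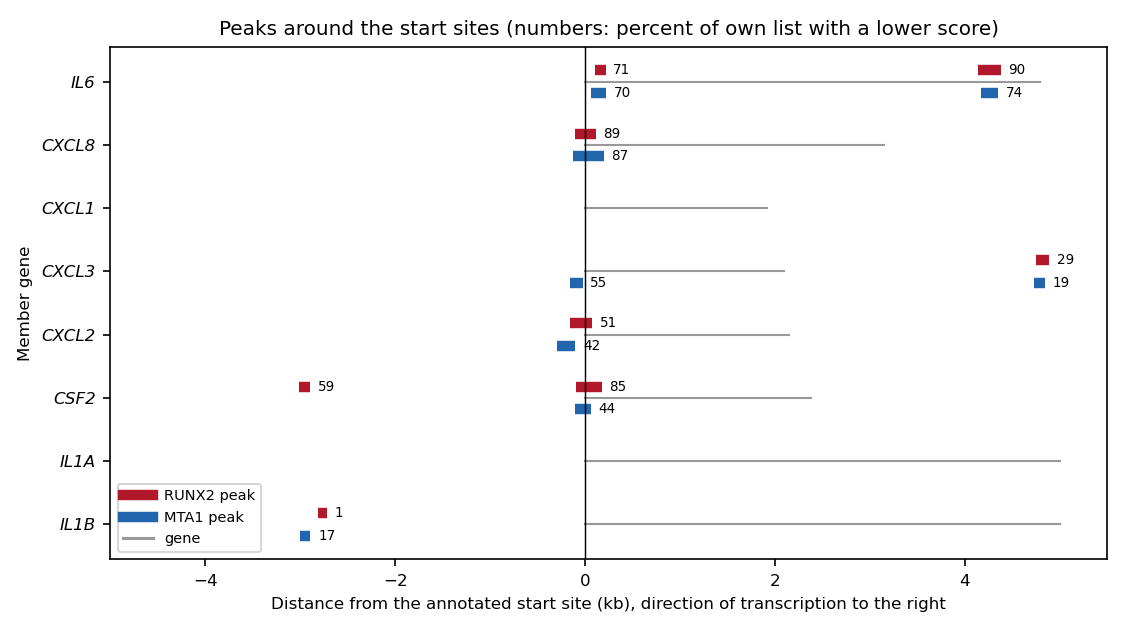
Peaks within 5 kb of the annotated start site of 8 member genes (for IL1A, the start site farther upstream), drawn as bars at their true width in kb with transcription to the right; RUNX2 is red and above, MTA1 is blue and below, the grey line is the gene, and numbers give the percent of the list with a lower score. CXCL8, CXCL2 and CSF2 have peaks of both lists at the start site, IL6 has them just after it, CXCL3 has MTA1 alone at the start site and a low pair beyond its 3′ end, and CXCL1 and IL1A have none in this range.

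Promoter sequences of RefSeq were matched for 8 of the 10 genes (GRCh38.p14, 250 bases before to 50 bases after each start site); LIF and CCL2 were the others. A RUNX2 peak touched this window at CXCL8, CXCL2 and CSF2, where 44.8% of 15842 protein-coding genes with a sequence had one. MTA1 touched it at these 3 and at CXCL3 (48.4% of genes), and 40.9% of genes had both. The windows were searched on both strands for the RUNX letters TGTGGT or TGCGGT, for the AP-1 letters TGANTCA and for an NF-kB motif of 10 letters that begins with GGG, has TT at letters 6 and 7 and ends in CC. Of 22198 windows of protein-coding genes, 19% held the RUNX letters, 6.15% the AP-1 letters and 6.09% the NF-kB letters. The 200 bases before the start site are shown for the genes whose promoters carry both peaks, CSF2, CXCL8 and CXCL2, and for CXCL1 and CXCL3, which resemble CXCL2 in sequence but not in peaks. Capitals mark the motif letters found. Each runs 5′ to 3′ on the strand of the gene.
CSF2, chr5:132073589-132073788, plus strand: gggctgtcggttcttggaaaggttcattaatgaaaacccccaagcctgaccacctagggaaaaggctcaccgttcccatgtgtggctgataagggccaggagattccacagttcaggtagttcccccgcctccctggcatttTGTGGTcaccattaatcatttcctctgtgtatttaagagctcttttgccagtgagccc
CXCL8, chr4:73740369-73740568, plus strand: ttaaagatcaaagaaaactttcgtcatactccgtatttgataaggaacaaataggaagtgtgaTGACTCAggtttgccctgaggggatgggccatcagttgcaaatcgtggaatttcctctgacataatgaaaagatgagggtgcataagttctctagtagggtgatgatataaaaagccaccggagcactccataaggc
CXCL2, chr4:74099196-74099395, minus strand: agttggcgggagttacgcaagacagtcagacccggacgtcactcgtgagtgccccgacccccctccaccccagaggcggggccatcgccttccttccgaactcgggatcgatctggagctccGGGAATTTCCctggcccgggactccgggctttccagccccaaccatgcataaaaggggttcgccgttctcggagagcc
CXCL1, chr4:73869193-73869392, plus strand: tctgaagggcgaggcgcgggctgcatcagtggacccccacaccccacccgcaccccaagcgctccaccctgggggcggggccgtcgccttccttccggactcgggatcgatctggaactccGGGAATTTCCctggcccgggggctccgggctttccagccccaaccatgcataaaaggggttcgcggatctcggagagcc
CXCL3, chr4:74038690-74038889, minus strand: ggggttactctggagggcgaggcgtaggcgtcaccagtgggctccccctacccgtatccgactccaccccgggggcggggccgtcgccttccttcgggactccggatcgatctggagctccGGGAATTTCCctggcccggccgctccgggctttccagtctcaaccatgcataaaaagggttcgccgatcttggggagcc

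CSF2 was the only gene of the 8 with the RUNX letters in the window, TGTGGT at -58 to -53 bp, and the peaks of both lists at CSF2 covered them. The window of CXCL8 held the AP-1 letters at -137 to -131 bp, just before the start of both peaks. Its stretch tggaatttcc, which lies under both peaks, departs from the NF-kB letters only in its first letter. The search asked for GGG, so that stretch was not counted or marked, and a site of looser sequence can be missed in any window. CXCL1 and CXCL3 held the NF-kB letters at -79 to -70 bp and CXCL2 at -78 to -69 bp, in each case as GGGAATTTCC. The same letters were thus under the MTA1 peak at CXCL3, under the RUNX2 peak at CXCL2 and under no peak at CXCL1. IL6 held NF-kB letters, GGGATTTTCC, at -73 to -64 bp, before its peaks. IL1A has 2 annotated windows that overlap, and both held the same 2 AP-1 matches, and IL1B held none of the 3 motifs. No match overlapped that of another motif. Over the full windows, CXCL1 and CXCL3 were identical in 82.5% of aligned positions, CXCL2 and CXCL3 in 73.8% and CXCL1 and CXCL2 in 71.9%, against 45.2% for CXCL8 and CXCL1. How reads that match several of these copies were treated was not given in the sources used here, so presence or absence of a peak at CXCL1, CXCL2 and CXCL3 is less certain than elsewhere.

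LIF encodes leukemia inhibitory factor, a cytokine of the interleukin 6 family, and had more peaks than any other gene of the list. Its window held 16 RUNX2 peaks, a number reached by 3.04% of protein-coding genes, and 13 MTA1 peaks, reached by 3.1%. Among genes no longer than IL1A these shares were 0.728% and 1.76%. In each list 11 of the peaks overlapped a peak of the other, where 45.4% of all RUNX2 and 65.5% of all MTA1 peaks did. The highest RUNX2 peak of the 10 genes lay 4.22 kb from LIF, at chromosome 22, 30235721 to 30236237 (score 49.9, above 98.5%), with an MTA1 peak above 81.1% of its list. The highest MTA1 peak of the 10 genes lay 43.9 kb away, at 30195988 to 30196524 (score 45.6, above 98.9%), with a RUNX2 peak above 92.1%. The strongest site of one list was thus not the strongest of the other.

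The peaks of LIF were spread over both sides of the gene and few lay in it. Towards lower positions, 3 pairs at 33.2 to 43.9 kb lay inside HORMAD2, a gene of meiosis, and inside the noncoding gene LOC105372988. Of these, the pair at 30205249 to 30206112 was the widest of the RUNX2 peaks of all loci at 864 bp, and its MTA1 peak of 831 bp stood above 96.4% of the list. Pairs in no annotated gene followed at 29.8, 27.6 and 11.5 kb, with RUNX2 ranks between 76% and 87.9%. Towards higher positions, pairs lay at 5.93 kb (RUNX2 above 90.1%, MTA1 above 74.6%) and at 10.6 kb (93.9% and 90.9%), before OSM, which encodes the related cytokine oncostatin M. The last pairs belonged in position to another gene, CASTOR1, an arginine sensor: one lay inside it and the other lay 122 bp (RUNX2) and 30 bp (MTA1) from its start site. LIF itself held 2 MTA1 peaks of low rank, above 11.8% and 14.9% of the list, and no RUNX2 peak.

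CSF2 encodes GM-CSF, which drives the formation of granulocytes and macrophages. Among its 6 RUNX2 and 5 MTA1 peaks, 4 of each overlapped (45.4% and 65.5% in the whole lists). The RUNX2 peak at the start site ran from -94 to +180 bp, at chromosome 5, 132073695 to 132073969 (score 17.7, above 84.7%). The MTA1 peak there, from -106 to +64 bp, had a score of 6.99 and stood above only 44.1% of its list, which was the widest difference of rank among all pairs of the 6 loci, 40.6 points. Further peaks lay downstream of CSF2, in no annotated gene. Pairs stood at 10.3 kb (RUNX2 above 86.5%, MTA1 above 87.5%), at 18.4 kb (96.4% and 93%) and at 27.3 kb (79.2% and 66.9%). The peak at 18.4 kb, 132094599 to 132095021, had a score of 37.2 and was the highest RUNX2 peak of the locus. Between these lay a RUNX2 peak without an MTA1 peak, at 132090173 to 132090378 (score 24.6, above 91%), the highest of the 24 RUNX2 peaks in the loci that overlapped none. Upstream, towards IL3, were 1 RUNX2 peak at 2.89 kb (above 59.3%) and 1 MTA1 peak at 8.78 kb (above 16.9%), which did not overlap. The highest ranks of both lists at CSF2 were thus downstream of the gene.

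IL1A and IL1B encode the alpha and beta forms of interleukin 1. Their joint locus held 14 RUNX2 and 9 MTA1 peaks, of which 6 in each list overlapped (45.4% and 65.5% in the whole lists). Each gene had 9 RUNX2 and 6 MTA1 peaks in its own window. The highest RUNX2 peak, at chromosome 2, 112764544 to 112764998 (score 45.6, above 98%), was 8.93 kb from IL1A but covered the start site of CKAP2L, a gene of the mitotic spindle. Its MTA1 peak, at 112764584 to 112764981, had a score of 25.5, above 92.8%. The next pair in rank lay in no annotated gene, 19.7 kb upstream of IL1A, at 112804208 to 112804507 for RUNX2 (score 20.5, above 87.6%) and 112804237 to 112804524 for MTA1 (score 23.6, above 91.4%). A pair 36.7 kb from IL1A for RUNX2, where NT5DC4 and CKAP2L overlap, stood above 83.8% (RUNX2) and 77.4% (MTA1). Another, 17.5 kb downstream of IL1B, stood above 57.7% (RUNX2) and 75.3% (MTA1). Inside the genes themselves were only RUNX2 peaks of the narrowest width, 1 in IL1A (above 20.8%) and 1 in IL1B (above 0.655%). The RUNX2 peak 2.72 kb and the MTA1 peak 2.89 kb upstream of IL1B, above 0.655% and 16.9%, did not overlap. Neither gene had a peak at its start site, and the shared sites of higher rank lay between the genes or at another gene.

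CCL2 encodes MCP-1, which attracts monocytes, and was the gene of the list with no MTA1 peak. The 4 RUNX2 peaks in its window lay 18.5 to 43.6 kb away, had scores of 4.73 to 5.22 and stood above 20.8% to 29.3% of the list, and 3 of them were 99 bp wide. With no MTA1 peak listed in the window, none of them could overlap one. The stretch around CCL2 was examined after this was seen. The nearest MTA1 peaks were 0.506 Mb and 0.569 Mb away, leaving 1.08 Mb without one, and 207 of 42659 gaps between neighbouring MTA1 peaks were as long, where the median gap was 21.1 kb. Wholly inside this stretch lay 7 protein-coding genes, CCL2, CCL7, CCL11, CCL8, CCL13, CCL1 and TMEM132E, and 14 RUNX2 peaks, 12 of them in the lower part of the list (below its median). Since the lists hold only peaks past the threshold of each library, a weak signal and none cannot be told apart there.

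**Figure D3:**
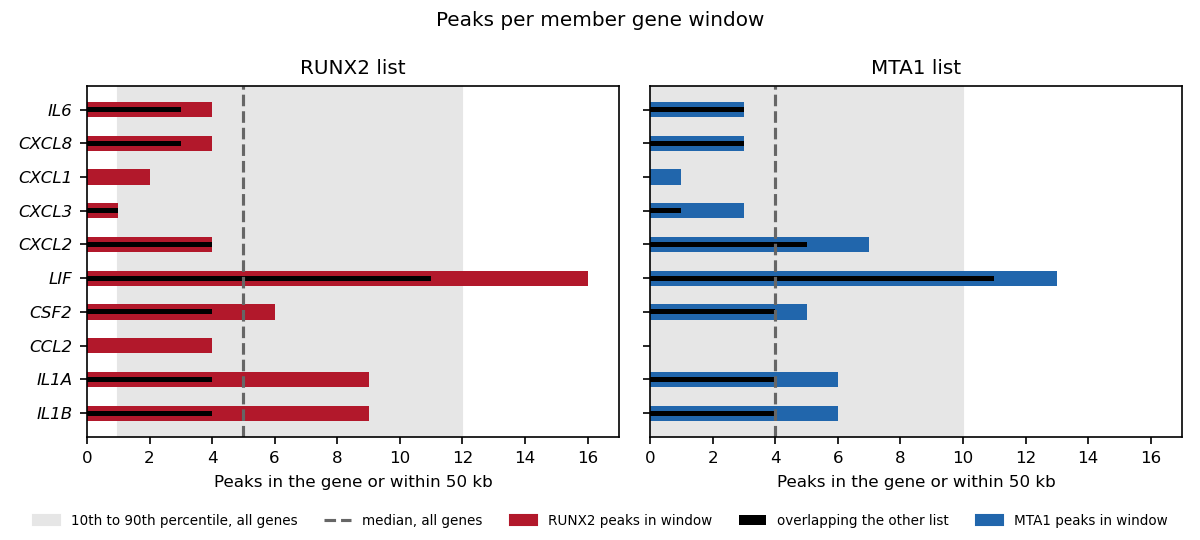
Number of peaks in each member gene or within 50 kb of it in the RUNX2 (left, red bars) and MTA1 (right, blue bars) list, with the number overlapping the other list in black. The dashed line is the median and the grey band the 10th to 90th percentile of 20033 protein-coding genes; LIF alone lies beyond the band, with 16 and 13 peaks, and CCL2 has 0 MTA1 peaks.

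The counts per window ranged from 1 at CXCL3 to 16 at LIF for RUNX2, around a median of 5 over all protein-coding genes, and from 0 at CCL2 to 13 at LIF for MTA1, around a median of 4. CXCL3 and CXCL2 were the genes with more MTA1 than RUNX2 peaks, 3 against 1 and 7 against 4. The IL1A and IL1B counts of 9 RUNX2 peaks were reached by 24.6% of genes, and the 7 MTA1 peaks of CXCL2 by 25.8%. Among protein-coding genes no longer than IL1A these shares were 18.4% and 23.7%, and the median counts were 4 for RUNX2 and 3 for MTA1. Windows of clustered genes share peaks, so these counts are not independent.

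Of the RUNX2 peaks in the loci, 32 of 56 overlapped an MTA1 peak, or 57.1% (95% exact interval 43.2% to 70.3%, for counting error only), against 45.4% of the whole list. For MTA1, the overlapping peaks were 33 of 43, or 76.7% (61.4% to 88.2%), against 65.5%. The interval of the MTA1 share includes the value of the whole list and that of the RUNX2 share does as well. The median rank of all peaks in the loci was above 59.3% of the RUNX2 list and above 69% of the MTA1 list. Overlapping RUNX2 peaks in the loci had a median rank above 82.6% of the list and a median width of 262 bp, while the others had 29.3% and 102 bp. For MTA1 these were 74.6% and 286 bp against 29.1% and 126 bp. The whole lists had the same order, with median ranks of 72.4% against 29.3% for RUNX2 and 65.2% against 24.4% for MTA1. Among peaks with a rank above 75% of the RUNX2 list, 20 of the 22 peaks in the loci overlapped an MTA1 peak (83.4% in the whole list), the exceptions being the peaks near CSF2 and CXCL1 given above. Above 75% of the MTA1 list, 16 of 16 overlapped a RUNX2 peak (96.7%).

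**Figure D4:**
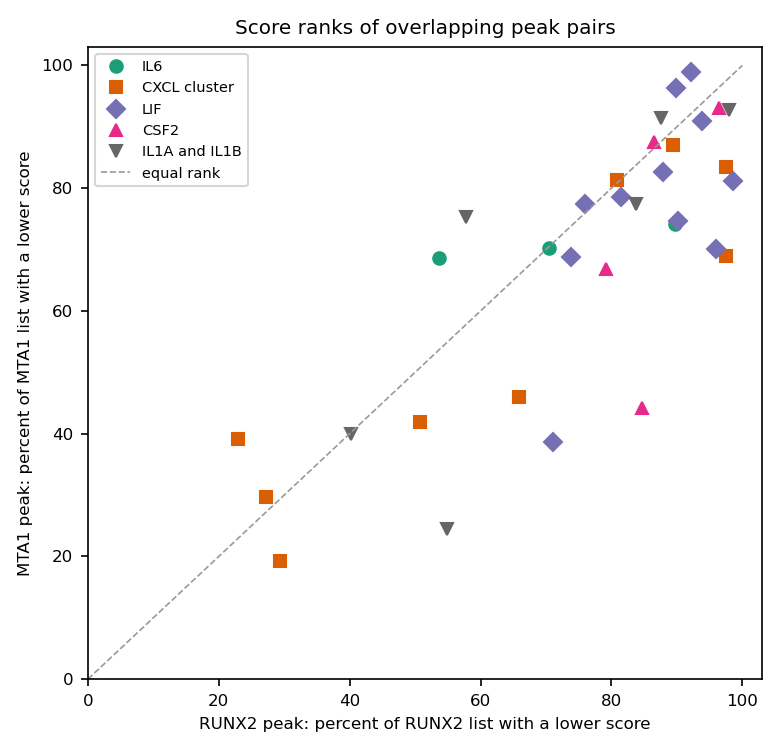
Each of the 33 overlapping pairs of the loci by the percent of the RUNX2 list (horizontal) and of the MTA1 list (vertical) with a lower score; symbols mark the locus and the dashed line equal rank. Of the 11 pairs of LIF all but 1 lie at the upper right, while those of the CXCL locus run from low to high ranks, and the start-site pair of CSF2 lies farthest below the line.

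In the 33 overlapping pairs the RUNX2 peak ranked higher than its MTA1 partner in 23 and lower in 10. RUNX2 was also more often the higher in the whole lists, in 16306 of 28440 pairs, with MTA1 higher in 12134. The difference, RUNX2 minus MTA1, ran from -17.7 points between IL1A and IL1B to 40.6 points at the start site of CSF2, with a median of 5.03, against 3.66 over the 28440 pairs of the whole lists. Sites where MTA1 ranked higher included the pair upstream of IL6 (-14.9 points) and the pairs of LIF in HORMAD2 at 43.9 and 34.3 kb (-6.8 and -6.47). The remaining LIF pair in HORMAD2, at 33.2 kb, went the other way (25.9 points). At CXCL8 the ranks at the start site differed by 2.29 points, and at the pair after the IL6 start site by 0.311.

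Other genes of these pathways were counted in the same way. Of 11 receptor genes, 10 had a RUNX2 peak in the window (90.8% of all protein-coding genes) and 10 an MTA1 peak (86.6%), and the exception was CXCR2, the receptor of the GRO chemokines, with 0 of either. LIFR, the receptor of LIF, had 18 RUNX2 and 9 MTA1 peaks, which for this long gene is 7.7 and 3.85 per 100 kb. IL1RN, which encodes the natural inhibitor of interleukin 1, had 5 and 3. Per 100 kb, the median of the receptors was 3.34 RUNX2 and 2.44 MTA1 peaks, that of the 10 genes 3.92 and 3.91, and that of all protein-coding genes 3.55 and 2.58. For protein-coding genes no longer than IL1A it was 3.88 and 2.89, so the RUNX2 value of the 10 genes was close to that of genes of like length. The MTA1 value of the 10 genes, 3.91 against 2.89, was higher, a difference that was not tested.

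Of 17 neighbouring genes of the same families, 17 had a RUNX2 peak in the window, where 90.8% of all genes did, and 11 an MTA1 peak, where 86.6% did. Several of these windows share peaks with one another and with those of the 10 genes. Those without MTA1 were PF4 in the CXCL locus and the CCL2 neighbours CCL7, CCL8, CCL11, CCL13 and CCL1. OSM, whose window overlaps that of LIF, had 14 and 9 peaks, the most of these neighbours. Of 13 other cytokines and chemokines, 12 had a RUNX2 peak and 10 an MTA1 peak, again beside 90.8% and 86.6% of all genes. For RUNX2 the highest count was that of CSF3, which encodes the granulocyte factor G-CSF, with 12 RUNX2 and 9 MTA1 peaks. For MTA1 it was that of IL11, another cytokine that signals through gp130, with 9 RUNX2 and 11 MTA1 peaks, followed by TNF with 7 and 10. IL33 had 0 of either list, and the chemokine genes CXCL12 and CCL5 had RUNX2 peaks, 3 and 2, but 0 MTA1 peaks.

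The limit of 50 kb did not split a dense group of peaks. Apart from peaks between the genes of the CXCL locus, the outermost RUNX2 peak inside it lay 44.6 kb from IL1B (score 5.39, above 40.2%) and the first outside it 55.5 kb from LIF (score 3.32, above 3.93%). For MTA1 the outermost was 46.9 kb from IL1A (score 11.5, above 70.8%) and the first outside 53.5 kb from IL6 (score 7.01, above 44.5%).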

How the data were processed

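CUT&Tag libraries for RUNX2 and MTA1 were made by the authors from MDA-MB-231 cells, 1 per antibody. The labels name another supplier for both antibodies than the methods of the study, and they describe adaptor ligation to precipitated DNA, so the product and the library preparation are uncertain. The submitters' processing notes name CASAVA 1.4, Bowtie 0.12.8, MACS and MACS2 and the build hg19, with no role or order. The caller's threshold and any control library were not given in the sources used here. The deposited lists hold the position of each peak and a score whose scale the authors did not state. A list shows only what passed the threshold of its library, and depth is unknown.

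Positions were printed 1-based. Chromosomes 1 to 22, X and Y were used, and mitochondrial peaks, 17 for RUNX2 and 15 for MTA1, were not counted. To settle the build, peaks no farther than 1 kb from either end of protein-coding genes were counted: 17.5% of RUNX2 and 24.6% of MTA1 peaks, against 4.27% and 4.57% after a move of 100 kb. Gene ends, neighbours and promoters came from RefSeq GRCh38.p14, which was used for names and distances. Overlap meant at least 1 shared bp. Shares carry exact Clopper-Pearson 95% intervals over peaks, and no p-value was computed. The 10 genes, the lists of related genes and the motifs were chosen with earlier results of these data known. For each gene, the peaks in its window were counted and, in each list, the highest and the nearest were named. Further peaks, and the stretch around CCL2, were added after their values were seen. From the related lists, genes with the most peaks or none were named. Alternatives were other windows, score and width limits, overlap rules, merging of close peaks and separate CXCL windows. Counting of overlaps was checked with simulated lists: 30% of 61700 peaks were planted to overlap and 30% were recovered. The planted peaks were copies moved by less than their width, so all had to overlap, and the check covers the counting code only. Peaks that were not planted but overlapped are not part of that percent. Python 3.11.15, numpy 2.4.6, pandas 2.3.3, scipy 1.17.1, Biopython 1.88 and matplotlib 3.10.9 were used.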

Additional observations from a re-analysis of the deposited data

How the results depend on the processing

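Of 60 values computed under other settings, 46 stayed close to the reported ones, meaning within 1.5 times for a count and within the 95% interval for a share or a median rank, and 14 did not. The 56 RUNX2 and 43 MTA1 peaks became 19 and 19 with a window of 10 kb, 35 and 26 when only scores from the median upward were kept, and 18 and 15 with the top 10000 of each list, fewer by construction. The share of MTA1 peaks overlapping a RUNX2 peak, 76.7%, was 57.9% with the window of 10 kb (the cause was not tested), 58.1% when 50% of both peaks had to be shared, which is stricter by construction, and 92.3% at or above the median score (the cause was not tested). The whole MTA1 list, to which no window applies, had 65.5%. Its peaks ranked from 50% to 75% overlapped the uncut RUNX2 list in 80.1%, and those above 75% in 96.7%. Whole-list shares with the 50% rule, or with both lists cut at the median, were not computed. Of the genes with a peak within 3 kb of an end, the 7 with MTA1 became 3 at or above the median score and the 6 with both became 2. Among the top 10000, RUNX2 was left at 3 genes, MTA1 at 1 and both at 1. The shares of all protein-coding genes under these stricter limits were not computed. These falls, fewer by construction, therefore have no background and say nothing particular about the 10 genes. No paired analysis was possible because there was 1 library for each antibody. For the same reason no replicate could be left out. Depth is unknown, so no limit of detection can be given for a missing peak.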
